A study of Drosophila melanogaster with 2 samples.

Results

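The cells described here were ovary barcodes that carried transcripts of abd-A together with vir-1 or CAH9. They were chosen by their UMI counts (unique molecular identifiers, each standing for 1 captured RNA molecule). A barcode was a member if it had at least 1 UMI of abd-A, at least 1 UMI of vir-1 or CAH9, and 0 UMIs of Hml, Mhc and mex1. This gate took 587 of the 19009 barcodes that passed the quality limits of at least 500 genes, at least 1000 UMIs and at most 20% mitochondrial UMIs. There were 315 members among 9878 kept barcodes at 6 weeks (3.19%, exact 95% interval 2.85 to 3.55%) and 272 among 9131 at 1 week (2.98%, 2.64 to 3.35%). The intervals overlap, and here as throughout they cover counting error only.

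The study set ovaries of old flies beside those of young flies to ask how cells of the ovary, follicle cells above all, change with age. Ovaries came from w1118(x) female Drosophila melanogaster at 6 weeks and at 1 week after eclosion, with no transgene or treatment named in the labels, and males had been collected and kept along with them. Whole dissociated ovaries were used, since old ovaries were too fragile for enrichment of their anterior structures, and 10x Genomics 3' chemistry captured the RNA. The labels name the same kit version for both libraries, while the methods of the study name more than one without saying which served which library. There was 1 library per age, so age, library and any difference in kit cannot be told apart, no p-value was computed, and each difference lacks a replicate check.

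abd-A is a Hox gene, one of the transcription factors that give body segments their identity, and in the adult its product marks abdominal structures. The oviducts that carry eggs out of the ovary are an abdominal epithelium, and in that epithelium octopamine, the insect counterpart of noradrenaline, acts on the receptors Octbeta2R and Oamb to permit ovulation. vir-1 is known as a gene that rises after viral infection in flies through the JAK/STAT pathway, atilla as a marker of lamellocytes, which are blood cells that encapsulate parasites, and nec as a serpin that restrains the Toll pathway. Hml marks blood cells (hemocytes), Mhc muscle and mex1 gut. Members therefore carried marker genes that are used for a reproductive epithelium and for immune cells alike, and both kinds of genes are set side by side here. abd-A (FBgn0000014) lies on chromosome arm 3R at 16807214 to 16830049 and Abd-B (FBgn0000015), its neighbor in the bithorax complex, at 16927212 to 16972236 on the same arm in build BDGP6.54, both on the minus strand and protein coding.

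The values that chose the members were as follows. The level of a gene is given as CPM, its UMIs per 1000000 summed UMIs. CPM of abd-A were 593 at 6 weeks and 860.2 at 1 week in members, against 3.72 and 3.04 in the other kept barcodes. CPM of vir-1 were 10701 and 12838 in members, against 142 and 104 in the others. CPM of CAH9, a carbonic anhydrase gene, were 166 and 377 in members and 1.37 in the others of each library. All 3 genes were thus far higher in members, as the gate asked.

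Both vir-1 and CAH9 were counted in 105 members at 6 weeks and 122 at 1 week, vir-1 alone in 209 and 140, and CAH9 alone in 1 and 10. A single UMI of vir-1 said little: 33.8% of all kept barcodes at 6 weeks and 25.9% at 1 week had one, germ barcodes among them (57.1% of 21 and 58.3% of 24, median 42778 and 16363 UMIs). At least 10 vir-1 UMIs were found in 68.3% and 62.9% of members, against 3.12% and 1.68% of other barcodes. Members had a median of 7296 and 5330.5 UMIs, against 12754 and 10823 in the others, and a median mitochondrial share of 6.13% and 9.66%, against 4.36% and 6.11%. Members were thus shallower and richer in mitochondrial UMIs than the rest in both libraries, and the part of this in the comparisons was not tested. A further 36 and 23 barcodes that met the abd-A and vir-1 or CAH9 terms were set aside, 34 and 22 of them for Mhc, 2 and 1 for mex1 and 0 for Hml in either library.

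A gate of 1 UMI can take in single cells of other kinds, so the 30 nearest barcodes of every member were found in 30 principal components computed without the gate genes. At least 50% of these neighbors were members for 211 of 315 members at 6 weeks (67.0%, 61.5 to 72.2%) and 207 of 272 at 1 week (76.1%, 70.6 to 81.0%). These are called near members here, and the other 104 and 65 far members. The abd-A count went with the split: of members with 1 abd-A UMI, 33.7% of 89 and 27.1% of 59 were near, while of members with at least 5 abd-A UMIs, 91.7% of 157 and 94.7% of 133 were.

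Just outside the gate, barcodes with abd-A but neither vir-1 nor CAH9 had a median of 6.67% member neighbors in each library (83 and 103 barcodes), and barcodes with vir-1 or CAH9 but no abd-A had a median of 0% (2624 and 1802). Just inside it, members with 1 abd-A UMI had 16.7% and 13.3%. Most barcodes at these edges of the gate thus did not lie among members. Barcodes set aside for Hml, Mhc or mex1 had a median of 13.3% and 86.7% member neighbors. At least 50% were members for 44.4% of these 36 and 65.2% of these 23. The gate also left out like barcodes, since 54 others at 6 weeks and 40 at 1 week also had at least 50% member neighbors, of which 31 and 21 had no abd-A UMI and 16 and 15 had been set aside for Hml, Mhc or mex1.

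**Figure D1:**
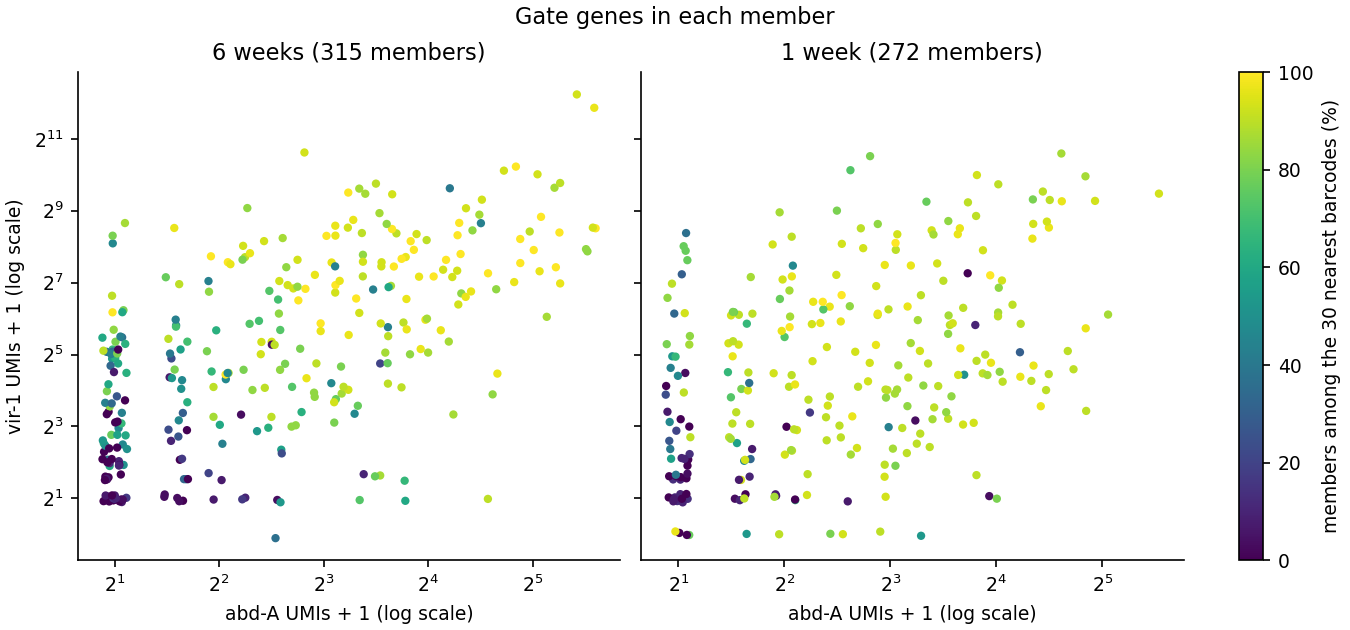
Each point is a member, placed by its abd-A UMIs and its vir-1 UMIs (both plus 1, on log scales, with a small random shift to part equal values) and shaded by the percentage of members among its 30 nearest barcodes, for 6 weeks at left and 1 week at right. Members with 1 abd-A UMI and few vir-1 UMIs are mostly dark (few member neighbors), and those with at least 5 abd-A UMIs are mostly light.

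Far members were mixed, and only 51 of them at 6 weeks and 33 at 1 week had under 10% member neighbors. Some far members carried markers of cells already known in the ovary. Wnt4, a ligand made by the escort cells that surround young germ cells, was counted in 26.0% of far members at 6 weeks and 40.0% at 1 week, against 1.42% and 1.45% of near members and 4.86% and 5.26% of other barcodes. eya, a follicle cell transcription factor, was counted in 28.8% and 27.7% of far members, against 4.27% and 4.83% of near members and 59.0% and 53.3% of others. Both eya and cas (0.962% and 3.08% against 8.41% and 8.23%) were rarer in far members than in others. zfh1 was more common there (27.9% and 38.5% against 23.0% and 22.8%). The components left out gate and mitochondrial genes only, so near and far shares of other genes may follow in part from the split. Values for near members are given beside those of all members for the genes that turn on them.

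Other genes that the gate did not use were counted in near members above all, though they could enter the components that set near members apart. Octbeta2R was counted in 89.6% and 88.4% of near members, against 34.6% and 16.9% of far members and 6.17% and 4.33% of other barcodes. Poxm, a paired-box transcription factor of the muscle lineage in embryos, was counted in 53.1% and 57.0% of near members, against 3.85% and 6.15% of far members. nec was counted in 77.7% and 75.4% of near members, against 36.5% and 24.6% of far members.

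Gene by gene, 9130 genes had at least 30 UMIs over members and other barcodes in each library, gate genes left out. Of these, 1040 (11.4%) were at least 2-fold higher in members in both libraries and 879 (9.63%) at least 2-fold lower. These shares describe the whole table, and every count over a gene group is to be read beside them. The median log2 ratio of all genes tested was -0.10 at 6 weeks and 0.04 at 1 week. The exact 95% interval of the ratio lay past 0 in both libraries for 983 of the higher genes and 747 of the lower, and 942 and 747 were also past 2-fold in near members. Since the members were picked out by their counts, these ratios are a description of what the gate took.

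The 20 genes with the highest ratio, ranked by the lower of both libraries, were the gate genes abd-A, CAH9 and vir-1, the given marker nec, and 16 others. First came CG32032, of which members had 304 CPM at 6 weeks and 277 at 1 week, against 1.5 and 1.57 in other barcodes, log2 ratios of 7.66 and 7.46. Secreted protease inhibitors of the serpin family took 3 places. nec reached 362 and 356 CPM in members against 3.82 and 4.13 (log2 6.57 and 6.43), Spn43Ab 150.4 and 109.5 CPM against 1.34 and 1.26, and Spn77Ba 105 and 96.2 CPM against 2.04 and 2.07. The log2 ratios of all 3 serpin genes lay above 5 in both libraries.

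Genes for water channels and peptide processing were in the same set. Drip, an aquaporin, had 290.3 and 375 CPM in members and 5.96 and 5.11 in others, log2 ratios of 5.61 and 6.2. QC, the glutaminyl cyclase that caps the amino end of secreted peptides, had 530.0 and 533 CPM against 10.3 and 9.19. Cyp4d8, a cytochrome P450, had 186 and 176 CPM against 1.97 and 1.54, and Poxm 91.6 and 107 CPM against 1.92 and 1.58. CG8369, a gene known by its number alone, had 1600.5 and 1631 CPM in members against 17.4 and 19.3, and was counted in 94.8% and 88.9% of near members. The remaining genes were CG16743, CG14196, CG15394, CG15096, CG10226, CG3505, CG31313 and CG9691, whose log2 ratios ran between 5.28 and 7.21.

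**Figure D2:**
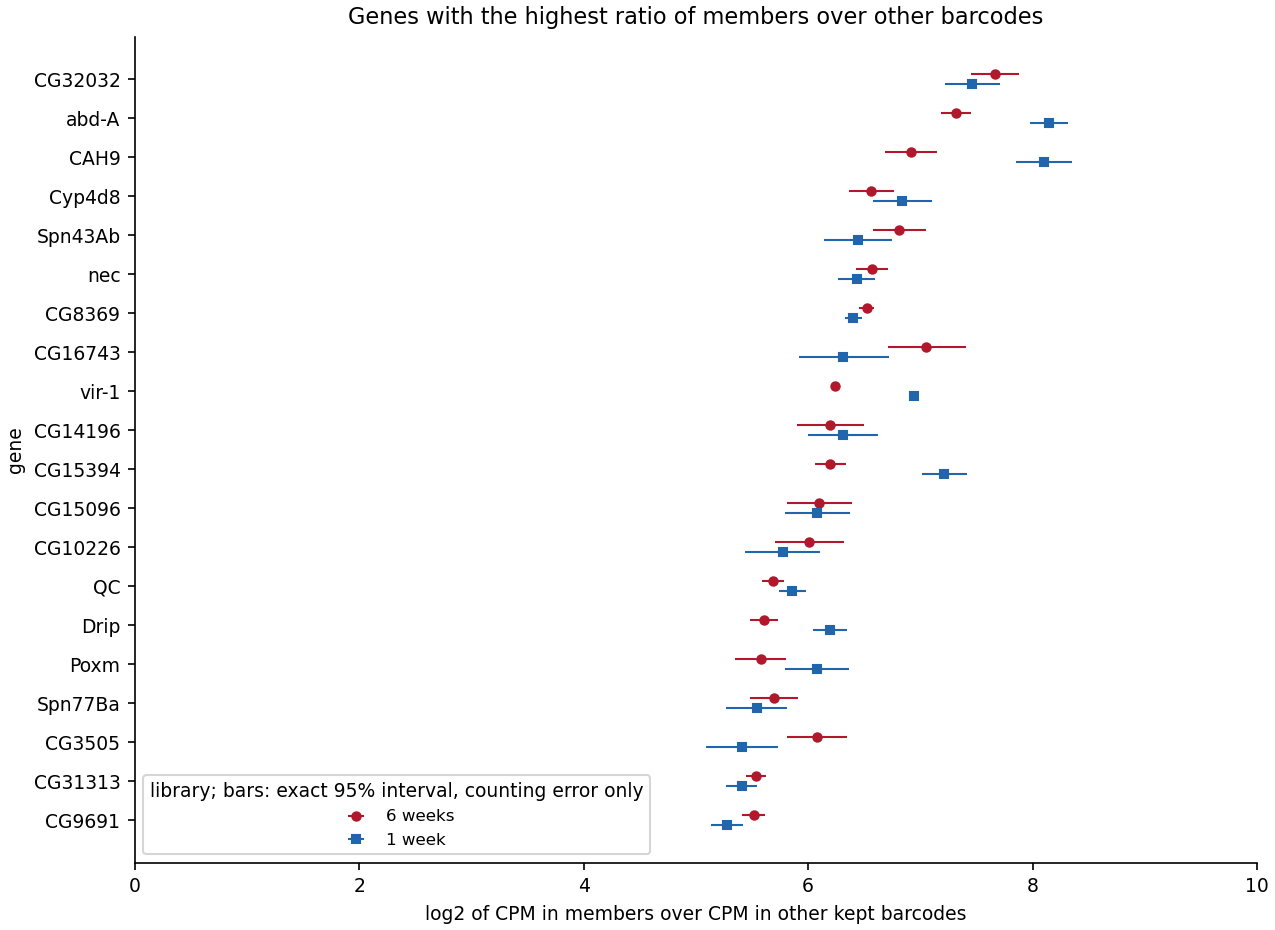
Log2 ratio of CPM in members over CPM in other kept barcodes (horizontal) for the 20 genes with the highest ratio (vertical), red circles for 6 weeks and blue squares for 1 week, with exact 95% intervals for counting error. All ratios lie above 5, and the gate genes abd-A, CAH9 and vir-1 are among them by choice.

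Of the genes of the reproductive tract and of ovulation, 6 of the 10 tested were higher in members in both libraries and none was lower (median log2 ratio 2.24 and 2.55). The list summed to 1785 and 2177 CPM in members, 2091 and 1146 CPM in Hml hemocyte barcodes and 486 and 431 CPM in other kept barcodes. The hemocyte sum was thus above that of members at 6 weeks and below it at 1 week. Timp (1236 and 523 CPM) and Mmp2 (643 and 318 CPM) made up most of it in the hemocytes, where Octbeta2R had 75.5 and 169 CPM. Octbeta2R, the octopamine receptor of the oviduct, had 541 CPM at 6 weeks and 655 at 1 week in members (795 and 853 in near members), against 14.9 and 7.64 in others, log2 ratios of 5.18 and 6.42. Oamb, the other octopamine receptor named above, had 21 and 17.5 CPM against 4.43 and 3.47, in 14.9% and 9.56% of members. Among the 8 octopamine and tyramine receptors tested these were the only 2 higher in both libraries, while Octalpha2R (17.9 and 15.6 CPM in members, 85.2 and 79.3 in others) and Oct-TyrR were lower. Germ barcodes had no UMI of Octbeta2R (0 of 21 and 0 of 24), and muscle barcodes had it in 28.7% and 21.9%.

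Abd-B, the Hox gene of the hindmost abdominal segments and the genitalia, had 63.1 and 145 CPM in members and 7.78 and 7.97 in others (log2 3.02 and 4.18). Abd-B was the single gene of the 6 tested Hox genes and cofactors, abd-A aside, to be higher in both libraries. sim, a transcription factor with a role in the embryonic midline, had 133 and 232 CPM against 43.9 and 34.0, counted in 72.5% and 72.9% of near members. The metalloproteinase gene Mmp2, known from follicle rupture, had 461 and 560.1 CPM against 71.0 and 49.1, and Timp, the inhibitor of such enzymes, 319.9 and 313 CPM against 158 and 149. The sex determination gene dsx (log2 0.40 and 1.14) and CaMKII (0.08 and 0.36) did not pass 2-fold in both libraries. Lgr3 had no UMI in members of either library.

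Of the hemocyte genes, 2 of the 11 tested were higher in members and 3 were lower (median log2 ratio -0.61 and -0.46). The blood cell surface genes He, NimC1, NimC2 and NimC4 had 0 UMIs in members of both libraries, where 3 UMIs would be 0.706 CPM at 6 weeks and 1.38 CPM at 1 week. None of the 315 and 272 members had a UMI of these genes. As a rough upper bound for cells of this kind, 3 cells would be 0.952% of the 315 and 1.10% of the 272. This bound limits detection at these depths and not expression. Hemocyte barcodes were taken as those with at least 2 Hml UMIs and a UMI of He, NimC1 or eater, and none of abd-A (15 and 43), so their levels of these genes follow in part from that choice. Of the genes that did not choose them, they had 53.9 and 38.1 CPM of NimC2 and 517 and 98.0 CPM of NimC4. The hemocyte genes as a whole, those that chose the hemocytes included, summed to 703 and 761 CPM in members (960 and 908 in near members), 8969 and 31815 CPM in the Hml hemocytes, and 346 and 387 CPM in other kept barcodes.

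The pair of hemocyte genes that were higher is also known outside blood. srp, a GATA transcription factor that is also used in fat body and embryonic endoderm, had 125 and 120.1 CPM in members, 352 and 479 in the Hml hemocytes and 37.7 and 26.6 in other barcodes. crq, a scavenger receptor of the CD36 family, had 307 and 259 CPM in members, 1247 and 1263 in the hemocytes and 62.3 and 53.9 in other barcodes. Nplp2, the most abundant gene of the list in the hemocytes (3619 and 26183 CPM), had 2.59 and 10.1 CPM in members, below the 10.1 and 89.7 CPM of the other kept barcodes. Sr-CI and Pxn were lower than in other barcodes as well.

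atilla, the lamellocyte marker among the given genes, had 370.3 and 237 CPM in members, against 19.1 and 12 in others, and 0 and 2.72 in the Hml hemocytes. With cher, the filamin gene, it made up the 2 of 7 tested lamellocyte and crystal cell genes that were higher in both libraries. The prophenoloxidase genes PPO1 and PPO2 of crystal cells had no UMI in members. In near members atilla was counted in 58.8% and 50.2%. Of the other given markers, the Hml hemocytes had 791 and 498 CPM of nec and 1466 and 1053 CPM of vir-1, and no UMI of CAH9.

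**Figure D3:**
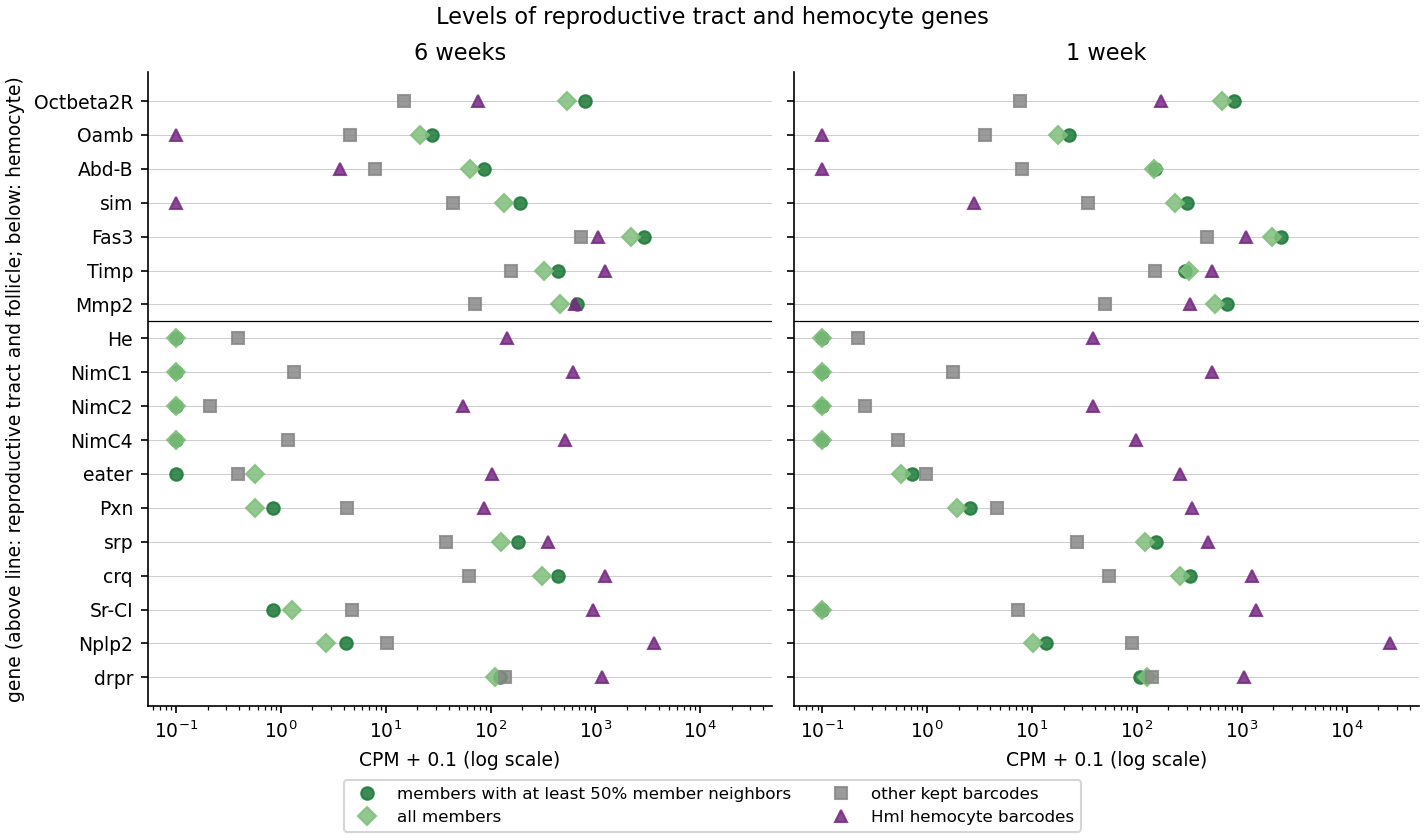
CPM plus 0.1 on a log scale (horizontal) of reproductive tract and follicle genes (above the line) and hemocyte genes (below it) in near members (dark green circles), all members (light green diamonds), other kept barcodes (gray squares) and Hml hemocyte barcodes (purple triangles), for 6 weeks at left and 1 week at right. Octbeta2R reaches 795 and 853 CPM in near members, while He, NimC1, NimC2 and NimC4 lie at 0 in members of both libraries. A UMI of He, NimC1 or eater was needed to be a hemocyte barcode.

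Genes of pleated septate junctions were high in members. Septate junctions seal neighboring epithelial cells against leakage, in a pleated form in ectodermal epithelia and glia and a smooth form in the midgut. Of the 19 pleated septate junction genes tested, 13 were higher in members in both libraries and none was lower, with a median log2 ratio of 2.02 and 2.35. Nrg reached 2149 and 1922 CPM in members against 349 and 254, pck 574 and 573 CPM against 85 and 75.4, and cora 547 and 571 CPM against 127 and 104. The claudin-like kune had 319 and 308 CPM against 49.6 and 44.4. The other 9 were Cont, sinu, crim, Nrx-IV, Tsf2, cold, nrv2, Mcr and crok.

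Of the smooth form, mesh and Tsp2A were lower in members (log2 -4.75 and -2.51 for mesh, -1.64 and -2.48 for Tsp2A). Their partner Ssk, in contrast, had 449.9 and 324 CPM in members and was counted in 61.6% and 55.1% of near members, with a log2 ratio of 2.65 at 6 weeks and 0.84 at 1 week. mex1 gut barcodes, which are among the others, numbered 73 at 6 weeks and 167 at 1 week, and their part in this was not tested. Of 16 genes of epithelial polarity and adherens junctions, only Fas3 was higher in both libraries (2179.8 and 1931 CPM in members, 727 and 463 in others) and only ed lower. shg, the E-cadherin gene, had 279 and 247 CPM in members and 228 and 181 in others. Of 10 basement membrane genes none was higher and 6 were lower, including both collagen IV genes: Col4a1 had 77.5 and 65.4 CPM in members against 451 and 460.0, and vkg 36.7 and 40.0 against 206 and 203.

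Of 21 genes of ion and water transport, 4 were higher and 2 lower. Best2, a bestrophin chloride channel gene, had 1268 and 1458 CPM in members against 125 and 119, and was counted in 98.1% and 96.6% of near members. Beside Drip, the aquaporin gene Prip had 263 and 362 CPM against 52.5 and 58.9, and the potassium leak channel Ork1 33.0 and 44.2 CPM against 2.39 and 2.31. Of the carbonic anhydrases other than CAH9, which interconvert CO2 and bicarbonate, CAH1, CAH5 and CAH6 were higher and CAH7 lower among 8 tested. CAH1 had 178 and 64.4 CPM in members against 4.27 and 5.88, although 1 member held 20.5% of its UMIs at 6 weeks and near members had 79.8 and 64.4 CPM. CAH5 and CAH6 were in at most 7.62% of members.

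Of the Imd pathway, which senses bacterial peptidoglycan and switches on antimicrobial peptides through Relish, 9 of 19 genes tested were higher in members and none was lower (median log2 ratio 1.11 and 1.09). Its receptor PGRP-LC had 87.6 and 101 CPM in members against 13.9 and 13.6, PGRP-LA 68.5 and 69.5 CPM against 9.58 and 10.7, the kinase Tak1 143 and 171 CPM against 20.6 and 16.6, and the transcription factor Rel 192 and 114 CPM against 67.0 and 47.0. The others were Fadd, Diap2, imd, PGRP-LF and pirk. Levels in the Hml hemocytes were above those of members for Rel (614 and 697 CPM) and below them for Tak1 (57.5 and 59.9 CPM).

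Of the Toll pathway 6 of 17 genes were higher and none was lower. Besides nec these were the proteases upstream of the Toll ligand, modSP (48.7 and 53.8 CPM in members, 2.73 and 3.80 in others), psh (35.8 and 41.0 against 1.40 and 1.32) and Hayan (21.9 and 14.7 against 0.801 and 1.10), with GNBP1 and the receptor gene Tl. spz, dl and Dif did not pass 2-fold in both libraries.

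Of 18 genes of the JAK/STAT pathway and response, vir-1 aside, 5 were higher and 3 lower. hop, the pathway's kinase, had 220.1 and 214 CPM in members against 22.2 and 17.6 (log2 3.31 and 3.61), and the thioester protein gene Tep4, a response gene, 448 and 435 CPM against 25.3 and 21. The receptor gene dome (log2 -0.04 and -0.15) and Stat92E (-0.62 and -0.33) were within 2-fold of the others. Socs36E, the feedback inhibitor that the pathway induces, had 257 and 157 CPM in members and 477 and 299.7 in others (log2 -0.89 and -0.93). Both values of Socs36E in members were thus below those of the other barcodes, by less than 2-fold.

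Antimicrobial peptide genes need to be read by cell. Of 12 tested, CecA1, Dro, AttA and AttB were higher in members in both libraries and AttD and Mtk lower. Dro, which encodes drosocin, had 1374 and 1002 CPM in members against 40.0 and 44.3, and was counted in 76.8% and 56.0% of near members. AttA, an attacin gene, had 412 and 239.8 CPM against 2.82 and 4.86. All antimicrobial peptide genes together summed to 25538 CPM at 6 weeks and 1581 at 1 week in members, but at 6 weeks 10 members held 90.1% of these UMIs, far members held 85.9%, and 1 member held 25%. That 1 member had 46.7% member neighbors, just under the 50% that near members needed. In near members the sums were 5631 and 2004 CPM (3797 and 1749 CPM without the 1 near member that held the most).

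Genes of the cell cycle were low in members. Of 13 S phase genes 10 were lower and none higher, and of 14 mitosis genes 12 were lower and none higher (median log2 ratios -2.16 and -1.78 for mitosis). PCNA, the replication clamp, had 30.6 and 26.2 CPM in members against 129 and 131, and CycA 4.71 and 5.52 CPM against 27.0 and 29.0. In near members CycA was at 2.57 and 3.10 CPM, and polo, a mitotic kinase gene, at 0 and 2.48 CPM.

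Markers of other ovary cells were mostly low too. Of 12 follicle lineage genes, 7 were lower (cas, slbo, br, upd1, mid, eya and CadN) and 2 higher (sim and Fas3). Of 16 eggshell and yolk genes 10 were lower and none was higher. Of 8 germ cell genes 5 were lower, and of 11 muscle genes 10 were lower. The gate left out every barcode with Mhc, and Mhc muscle barcodes (349 at 6 weeks and 215 at 1 week) were among the others. The low muscle genes may thus follow in part from the gate, and this part was not tested. Of 6 escort cell genes 3 were higher, but near members had only 1.47 and 16.7 CPM of Wnt4 and 3.31 and 21.7 CPM of Wnt6. fax was the exception, with 2206 and 1564 CPM in near members against 276 and 216 in others. Of 3 glial genes tested, moody, a receptor gene of the septate-junction barrier of the brain, and Gs2 were higher, while repo, which defines glia, was not among those with enough UMIs.

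Near members differed among themselves, and the aquaporin Drip, chosen for this after its values were seen, divided them. Drip was counted in 110 of 211 near members at 6 weeks (52.1%, 45.2 to 59.0%) and 90 of 207 at 1 week (43.5%, 36.6 to 50.5%). With each cell thinned to 1000 UMIs the shares were 26.5% and 27.5%, whose intervals overlap (20.7 to 33.0% and 21.6 to 34.2%). Germ barcodes had no Drip UMI.

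In summed UMIs, near members with Drip carried a set of transcripts that those without it carried at low level, in both libraries. Abd-B had 156 and 277 CPM in near members with Drip, against 4.74 and 25.8 in those without, and was counted in 59.1% and 58.9% against 4.95% and 5.98%. The transcription factor genes Lim1 and SoxN went the same way, Lim1 with 136 and 208 CPM against 6.32 and 28.2, and SoxN with 82.5 and 173 CPM against 0 in near members without Drip at 6 weeks. Drip thus went with the more posterior of the neighboring Hox genes, whereas abd-A was near level (882 and 1153 CPM with Drip, 772 and 971 without).

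Over all genes, 141 of 4054 (3.48%) were at least 2-fold higher with Drip in both libraries and 132 (3.26%) at least 2-fold lower, Drip and the gate genes left out (median log2 ratio over all genes -0.11 and -0.09). Of 9 ion and water transport genes, Ncc69 and Prip were higher, Nhe2 was lower, and the others were not past 2-fold in both libraries (median log2 ratio -0.09 and 0.03). Vmat, which loads monoamines into vesicles, had 694 and 427 CPM with Drip and 20.5 and 12.3 without, and the synaptotagmin gene Sytalpha 404 and 862 against 7.90 and 67.5. Ncc69, a sodium, potassium and chloride cotransporter gene, had 188 and 134 CPM with Drip against 30.8 and 24.5, Prip 577 and 747 against 176 and 139, and CAH1 122 and 111 against 30.8 and 18.4. vir-1 was higher with Drip as well, at 23202 and 28523 CPM against 6976 and 4785. Oamb had 49.5 and 40.0 CPM with Drip and 2.37 and 4.91 without, while Octbeta2R was near level (839 and 957 CPM with Drip, 745 and 751 without). Of 8 reproductive tract and ovulation genes tested, 3 were higher with Drip (Timp, Abd-B and Oamb) and Mmp2 was lower. Their median log2 ratio was 0.26 and 0.30.

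Of the antimicrobial peptides, all 4 tested (CecA1, Dro, AttA and AttB) were higher with Drip in both libraries. CecA2, CecC and Drs, which had under 30 UMIs at 1 week and so were not tested, went the other way at 6 weeks. They had 29.6, 2.06 and 20.6 CPM with Drip, against 81.4, 46.6 and 52.9 without. None of 11 Imd pathway genes and none of 12 Toll pathway genes passed 2-fold in both libraries, and of 10 JAK/STAT genes Tep4 alone was higher. Of 4 hemocyte genes tested, crq and ush were lower and none was higher. Tep4 had 1067 and 876 CPM with Drip and 201 and 199 without, AttA 1033 and 488 against 186 and 148, and Spn27A, a serpin of the melanization and Toll cascades, 696 and 440.5 against 90.9 and 85.9. atilla had 489 and 405 CPM with Drip and 125 and 118 without. Spn27A, Vmat and Sytalpha were named after their values were seen. nec was near level (478 and 492 CPM with Drip, 470.1 and 398 without).

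Near members without Drip had more of another set. GlcAT-P, a glucuronyltransferase gene, had 57.1 and 47.6 CPM with Drip and 1202 and 676 without, and was counted in 15.5% and 10.0% against 64.4% and 48.7%. The integrin gene if had 39.2 and 26.3 CPM with Drip and 269 and 185 without, and wb, a laminin gene and so a ligand of integrins, 263 and 308 against 1235 and 1429.7. stumps, an adaptor of FGF receptor signaling, had 48.1 and 70.1 CPM with Drip and 265 and 421 without. Act42A, an actin gene, had 679 and 608 against 2181 and 1865. CAH9, one of the gate genes, leaned the same way (173 and 375 CPM with Drip, 327 and 595 without), as did Fas3 (1944 and 1741 against 4058 and 3026).

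**Figure D4:**
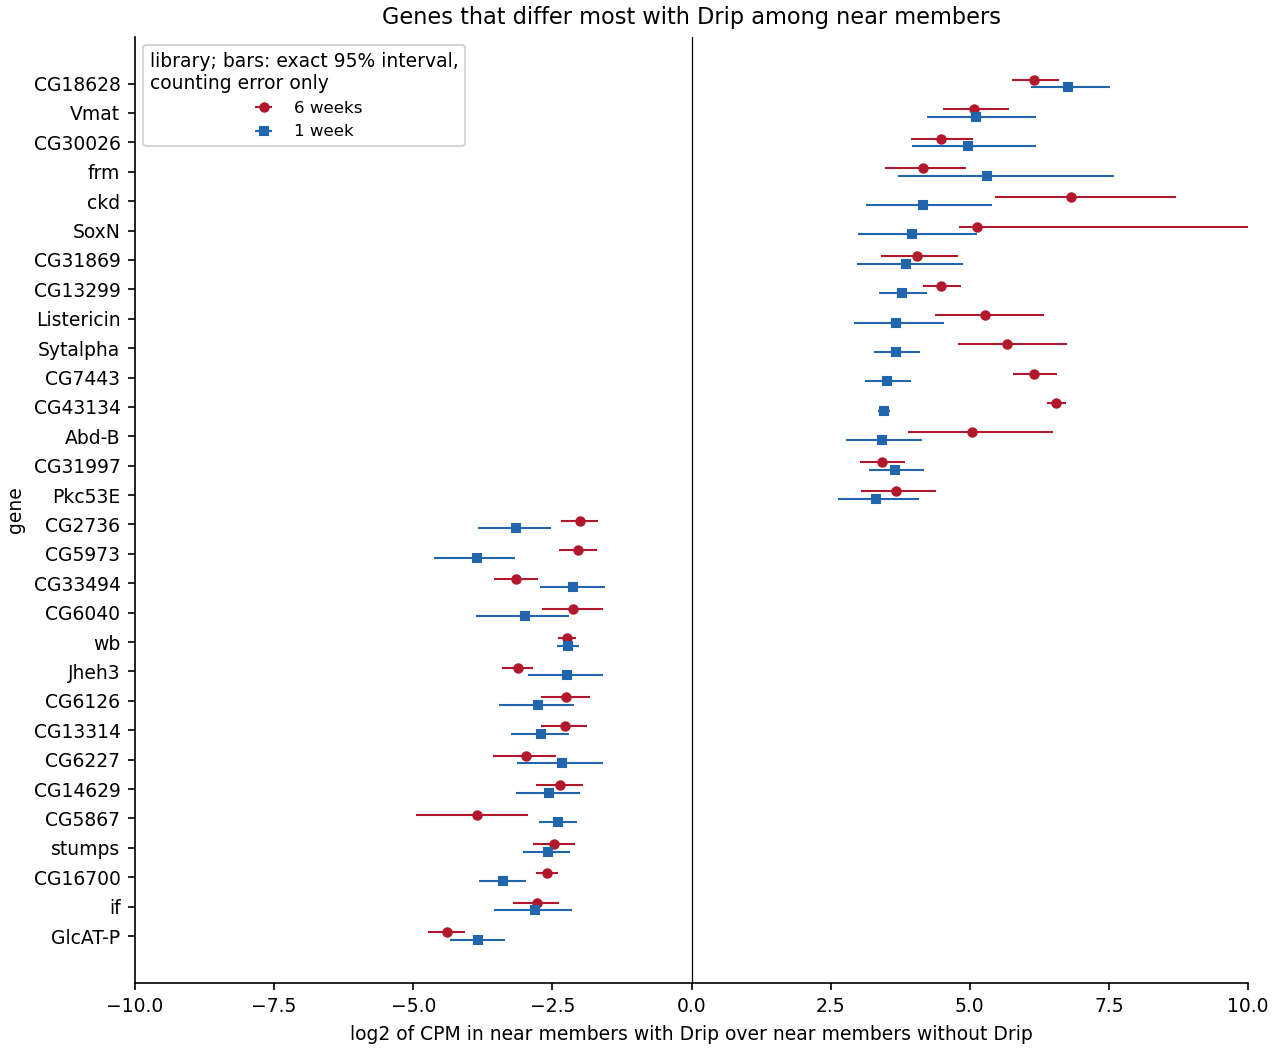
Log2 ratio of CPM in near members with Drip over near members without Drip (horizontal) for the 15 genes with the highest and the 15 with the lowest ratio in the same direction in both libraries (vertical, Drip itself left out), red circles for 6 weeks and blue squares for 1 week, with exact 95% intervals for counting error. The 15 genes above lie right of 3 and the 15 below left of -1.9 in both libraries, and SoxN at 6 weeks is a lower bound because near members without Drip had no UMI of it. Genes were placed by summed UMIs, and some were counted in few cells. Listericin was in 12.7% and 3.33% of near members with Drip (3.96% and 2.56% without), and CG18628 in 20% and 16.7% (11.9% and 5.98%).

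Between the ages, 6582 genes had at least 30 UMIs over the members of both libraries. Of these, 232 (3.52%) were at least 2-fold higher at 6 weeks and 187 (2.84%) at least 2-fold lower. The other kept barcodes passed 2-fold for 37 (0.562%) and 112 (1.7%) of the same genes, 17 and 35 of which were also called in members. Members summed to 4247565 and 2172721 UMIs, against 143484622 and 116549269 in the others, which also mix many kinds of cells. The shares of members and others are thus not at equal depth, and counting error is larger in members. Of the higher genes 202 had over 10% of their UMIs in 1 member, and of the lower 105. Without the 10 members of each library that held the most antimicrobial peptide UMIs, 122 genes were higher, and with each barcode counted equally 282 were lower. In near members 113 of 5729 genes were higher (1.97%) and 151 lower (2.64%), of which 55 and 62 were also past 2-fold in all members. The median log2 ratio was -0.09 in members, -0.06 in near members and 0.01 in the others.

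Neprilysin 2 (Nep2), a membrane peptidase that breaks down signaling peptides, headed the genes that were higher at 6 weeks. Members had 117 CPM of it at 6 weeks and 29.5 at 1 week, a log2 ratio of 1.99 (1.61 to 2.39), against 0.24 in the other barcodes. Near members gave 1.71 (1.27 to 2.17), with Nep2 in 25.6% of them at 6 weeks and 10.6% at 1 week. It was higher both with Drip (1.45) and without (2.89).

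PGRP-LF, a decoy receptor that holds the Imd pathway in check, had 31.3 CPM in members at 6 weeks and 12 at 1 week (log2 1.39, 0.77 to 2.05, and -0.13 in others), and was counted in 30.8% and 10.6% of near members. The other 8 of the 10 highest were CG14567 (1.78), magu (1.61), CG2145 (1.44), CG32512 (1.43), GstD10 (1.16), CG5835 (1.14), Syt7 (1.13) and CG9372 (1.13). CG32512 and CG5835 were higher by a like amount in the other barcodes (1.48 and 1.19), so their difference was shared by the whole library. In near members GstD10 was at 0.91 and the others past 1. With each cell thinned to 1000 UMIs, magu (-0.042) and GstD10 (-1.80) turned round, and CG5835 (0.43) and Syt7 (0.93) were no longer past 2-fold. Without the 10 members that held the most antimicrobial peptide UMIs, magu (0.96), CG2145 (0.53), GstD10 (0.70) and CG5835 (0.95) were not past 2-fold. With each barcode counted equally GstD10 (0.63) and CG5835 (0.64) were not, and CG9372 lay just under the threshold. With at most 10% mitochondrial UMIs GstD10, Syt7 and CG9372 fell below 2-fold. With no limit on Hml, Mhc and mex1 Syt7 and CG9372 did. Syt7 also did with no mitochondrial limit and in members with both vir-1 and CAH9. CG5835 did without barcodes over 3 times the median UMI count.

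Antimicrobial peptide genes of near members were mostly higher at 6 weeks. Of 9 antimicrobial peptide genes with enough UMIs there, 7 were at least 2-fold higher and none lower (median log2 ratio 3.62), while all members had 6 of 11 higher and 1 lower, and the same 11 genes had a median of -1.04 in other barcodes. Not all of it lay in a few cells. AttB had a ratio of 1.17 and was counted in 47.9% of near members at 6 weeks and 25.6% at 1 week, and Drs, the drosomycin gene, in 17.5% and 1.93%. Any antimicrobial peptide UMI was found in 83.9% of 211 and 64.7% of 207 near members, and in 56.9% and 38.6% with each cell thinned to 1000 UMIs. Def, in contrast, was in 5.21% and 2.90%, although its ratio was 8.77.

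Of 17 Imd pathway genes in near members, PGRP-LF and pirk, another inhibitor of the pathway, were higher at 6 weeks and none was lower. pirk had 53.7 CPM in near members at 6 weeks and 17.3 at 1 week and was counted in 25.1% and 7.25%. Of 14 Toll pathway genes PGRP-SA, a sensor of Gram-positive bacteria, was higher (1.29). Rel had 199 and 120.2 CPM in near members, below 2-fold. Socs36E was higher in near members by 1.02 (0.78 to 1.27), and by 0.67 in other barcodes.

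Of the genes lower at 6 weeks, CG33939 was first, with 8.71 CPM in members at 6 weeks and 45.6 at 1 week (log2 -2.39, -2.97 to -1.83, and -0.75 in others). CG8745 followed at -1.90 (-0.80 in others), then CG10738 (-1.68), side-V (-1.44), CG32195 (-1.35), Sytalpha (-1.33), CG43394 (-1.33), zfh1 (-1.26), IRSp53 (-1.24) and Abd-B (-1.20). side-V encodes a cell surface protein of the Sidestep family and IRSp53 a protein that bends membranes at the actin cortex. After thinning CG8745 (-0.68), side-V (-0.27), zfh1 (-0.26) and Abd-B (-0.57) were not past 2-fold. With each barcode counted equally side-V (-0.50), Sytalpha (-0.69), zfh1 (-0.26) and Abd-B (-0.70) were not. In members with both vir-1 and CAH9, CG32195 (-0.31), Sytalpha (-0.82) and CG43394 (-0.93) were not. CG32195 was not with at most 10% mitochondrial UMIs, nor were side-V and zfh1 with no limit on Hml, Mhc and mex1. Without barcodes over 3 times the median UMI count zfh1 was not. Abd-B was counted in 33.2% of near members at 6 weeks and 29.0% at 1 week (11.4% and 9.18% thinned), with overlapping intervals. All 10 were lower in near members as well, Abd-B by less than 2-fold (-0.81). CG32195, Sytalpha and CG43394 were also lower in other barcodes (-0.65, -0.63 and -0.66), whereas Abd-B, zfh1, CG10738 and IRSp53 lay between -0.09 and 0.01 there.

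CAH9 had 166 CPM in members at 6 weeks and 377 at 1 week (log2 -1.18, -1.33 to -1.04) and a ratio of -0.99 in near members, with 0.00 in other barcodes. It was counted in 45.5% (38.6 to 52.5%) of near members at 6 weeks and 58.9% (51.9 to 65.7%) at 1 week, and in 15.2% (10.6 to 20.7%) and 28.5% (22.5 to 35.2%) of them after thinning. As CAH9 is in the gate this is not independent of the choice of members, although few were chosen by it alone. abd-A (-0.35 in near members), vir-1 (-0.08), nec (0.09), atilla (0.30) and Octbeta2R (-0.10) stayed within 2-fold.

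**Figure D5:**
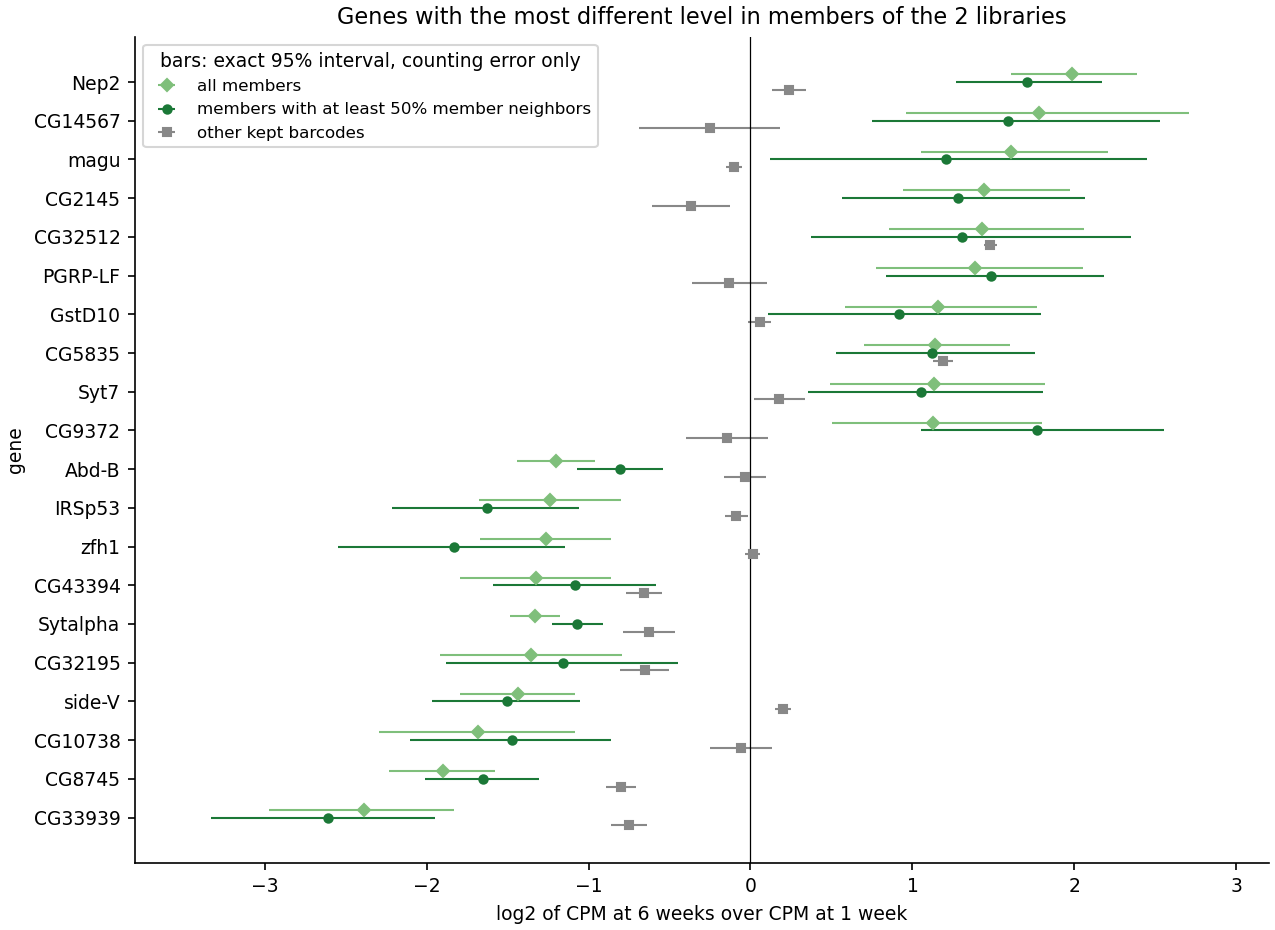
Log2 ratio of CPM at 6 weeks over CPM at 1 week (horizontal) for the 10 genes with the highest and the 10 with the lowest ratio in members (vertical), in all members (light green diamonds), near members (dark green circles) and other kept barcodes (gray squares), with exact 95% intervals for counting error. CG32512 and CG5835 lie together for members and other barcodes, and Nep2 and PGRP-LF lie apart (1.99 against 0.24, and 1.39 against -0.13).

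None of the 19 pleated septate junction genes passed 2-fold between the ages, in all members (median log2 ratio -0.06) or in near members (0.08). None of the 12 transport genes with enough UMIs in near members passed it either. Of 13 JAK/STAT genes in near members Tep2 (1.21) and Socs36E (1.02) passed it. Of 9 reproductive tract genes only SPR, the sex peptide receptor gene, passed it in near members, and its UMIs lay in 0.948% of them at 6 weeks, with 1 member holding 55.4% of the UMIs of all members. The Hox cofactor gene hth was 2-fold higher at 6 weeks too, in 6.64% and 3.38% of near members, with 1 member holding 20.9% of the UMIs of all members.

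Eggshell and yolk genes were lower at 6 weeks in members, all 8 that were tested, with a median log2 ratio of -3.06, and -1.93 in other barcodes. Vm26Aa, a vitelline membrane gene, had 2.59 CPM in members at 6 weeks and 106 at 1 week, against 131 and 747 in other barcodes, and 1 member held 76.6% of its UMIs in members at 1 week. Near members had 2.57 and 29.1 CPM of it, and of 6 eggshell genes tested there all were lower (median -3.33). In members, as in the others, these levels moved with those of the whole library, and the part of RNA free in the suspension was not tested. Of the 7 basement membrane genes with enough UMIs in near members, trol, vkg and Col4a1 were lower at 6 weeks, and vkg had 2.57 CPM in near members at 6 weeks and 19.8 at 1 week, under the 206 and 203 CPM of other barcodes.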

How the data were processed

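Single cells of dissociated ovaries were profiled with 1 library per age. The authors used Cell Ranger 9.0.0 and build BDGP6 (submitters' processing notes), and the deposited files hold UMI counts of 13942 genes in 20224 barcodes at 6 weeks and 33317 at 1 week (162985928 and 147628511 UMIs), none under 500 UMIs. Kept barcodes had 500 or more genes, 1000 or more UMIs and 20% or less mitochondrial UMIs. No doublet caller was run, and an alternative leaves out barcodes over 3 times the median UMI count. The libraries shared 26 kept barcode sequences, of which 0 were members.

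UMIs were summed per library over members and over other kept barcodes and scaled to CPM. Genes with at least 30 UMIs were called at 2-fold or more, for members over others in both libraries. Near members with and without Drip were compared by the same rule, with at least 30 UMIs in near members of each library. A group at 0 was set to 3 UMIs where this gave a bound, and no ratio was given where both groups had at most 3. Intervals are exact binomial at 95% and cover counting error only. Neighbors were found with scikit-learn 1.9.0 on 2000 variable genes and 30 components, without gate and mitochondrial genes. Thinned cells were drawn down to 1000 UMIs.

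Named genes are the gate genes, the given markers, the 20 highest ratios of members over others (at least 100 UMIs and 25% of members in each library), the 10 highest and 10 lowest ratios of 6 weeks over 1 week (at least 100 UMIs, 10% of members in 1 library or more, no member with over 10% of the UMIs), and genes of 34 lists past 2-fold or defining another cell type. A few further list genes, and the genes that Drip divides, were chosen after their values were seen. Members and lists were chosen with earlier results of these data known. The ratio functions were tested on simulated data. Symbols are those of the deposited files, and positions those of Ensembl release 115 (13879 of 13942 identifiers found).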

Additional observations from a re-analysis of the deposited data

Results flagged for a closer look

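CG43394 was among the genes lower at 6 weeks in members, but near members with and without Drip went opposite ways. Its log2 ratio of 6 weeks over 1 week was 1.41 in near members with Drip (29 and 6 UMIs) and -1.76 in those without (33 and 72 UMIs). This difference was not tested, since each age has 1 library.

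Barcodes outside the quality limits also met the gate, 165 of 10346 at 6 weeks and 274 of 24186 at 1 week. Of these, 137 and 272 exceeded the mitochondrial limit. They had a median of 1145 and 1188 UMIs, with 3 vir-1 UMIs in each library, and entered no comparison.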

How the results depend on the processing

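No paired analysis was possible because the ages have 1 library each. Counting each barcode equally and leaving out the 10 members with the most antimicrobial peptide UMIs were chosen after seeing the data. The share of members, 3.19% at 6 weeks and 2.98% at 1 week, was 2.29% and 2.33% with at least 2 abd-A UMIs, 1.06% and 1.34% with both vir-1 and CAH9, 2.14% and 2.27% with near members only, and 2.19% at 1 week with at most 10% mitochondrial UMIs. The counts of members over others moved by more than 1.5 times only with cells thinned to 1000 UMIs (572 higher, 521 lower). The 19 named genes of that comparison stayed past 2-fold under each of the 12 alternatives that recompute single genes.

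The count of genes higher at 6 weeks, 232 in all members, was 140 without barcodes over 3 times the median UMI count, 113 in near members, 122 without the 10 members with the most antimicrobial peptide UMIs, 71 with thinned cells, 119 with a gene minimum of 100 UMIs and 417 with one of 10. The count of lower genes, 187, was 51 with thinned cells, 60 with a minimum of 100, 395 with one of 10 and 282 with each barcode counted equally. With thinned cells magu was at -0.042 and GstD10 at -1.80, both reversed, and 11 of 20 named genes stayed past 2-fold. The causes were not tested. Depth limits genes with few UMIs, and 1 library per age leaves no measure of the spread between flies.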

Other observations

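Lists that the report does not describe gave these values. Of 18 JNK and stress genes, Mmp1 and Thor, the translation inhibitor 4E-BP, were higher in members (Thor 679 and 873 CPM at 6 weeks and 1 week, against 213 and 209 in other barcodes), and Ilp8 and rpr lower. Of 15 heat shock genes Hsp70Ba was higher and Hsp68 and Hsp67Bc lower. Near members, however, had 0 UMIs of Hsp70Ba at 6 weeks and 2 at 1 week. Of 15 ecdysone response genes 6 were lower, br among them (46.6 and 61.7 CPM in members, 216 and 229 in others).

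Of the lists for organs near the ovary, Ggt-1 was higher among 4 spermatheca genes (106 and 111 CPM in members, 13.7 and 16.5 in others). Of 8 Malpighian tubule genes Best2 was higher and salt, Uro and Irk3 lower. Of 10 gut genes 4 were lower, of 5 fat body genes Yp1 was lower, of 8 neuron genes pros was lower, and of 7 trachea genes pio was higher and verm and serp lower.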
